A study of Mus musculus with 46 samples.

Results

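The tricarboxylic acid cycle oxidizes acetyl groups in the mitochondrial matrix and passes their electrons to the respiratory chain. Pyruvate from glycolysis enters through the mitochondrial pyruvate carrier and is turned into acetyl-CoA by the pyruvate dehydrogenase complex, or into oxaloacetate by pyruvate carboxylase. The malate-aspartate shuttle carries the electrons of cytosolic NADH into the matrix. Skeletal muscle fibers draw on steps of this pathway for aerobic work. The genes described here are 33 enzymes, carriers and regulators of these steps, chosen by symbol and matched by Ensembl identifier. All 33 were found among the 17514 genes of the gastrocnemius table and among the 16987 genes of the spinalis table, and all 33 were tested in both. By role, 11 act in pyruvate entry, 16 in the cycle and 6 in the shuttle.

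RNA was sequenced from skeletal muscle of C57BL/6J mice, a strain that the sample labels spell C57BL6. The mice were wild type (WT) or knockout (KO) for *Actn3*, which encodes the fast fiber protein α-actinin-3. In the first experiment, males aged 8 to 10 weeks had their testes removed (orchidectomy, ORX) or exposed and left in place (sham), and the gastrocnemius was taken after 12 weeks. This gave 6 libraries each for WT-sham, for WT-ORX and for KO-sham and 5 for KO-ORX, whose replicate 6 was not analysed here. In the second, females aged 4 to 5 weeks carried a tube with 10 mg of the androgen dihydrotestosterone (DHT), or an empty tube, for 6 weeks before the spinalis was taken, and each genotype had 6 libraries with DHT and 5 with an empty implant. Total counts per library lay between 26653932 and 55369921 in gastrocnemius and between 34812381 and 53899279 in spinalis. Every KO-sham library (at most 37486666) was smaller than every WT-sham library (at least 43408015). Levels are given in CPM, a gene's counts scaled to a common library total, after TMM scaling, which corrects for differences in library composition. The 2 tables were normalized separately, and tests were made only within a table. The p-values come from edgeR's quasi-likelihood F test, and q denotes them after adjustment for all genes of a table by the Benjamini-Hochberg method. A gene was called at q ≤ 0.01 for an effect of treatment or genotype and at q ≤ 0.05 for their interaction, which is the treatment effect in KO minus that in WT.

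Libraries of a group were compared by a chi-square statistic per gene on their counts, which is near 1 where libraries differ by sampling alone. WT-DHT libraries 39KR and 50KR stood apart, at 285 to 630 from the other 4 WT-DHT libraries, which lay at 20.8 to 42.5 from each other. Within the other spinalis groups the statistic reached 269. The TMM factors of these 2 libraries, 0.846 and 0.897, were the lowest in spinalis, and mitochondrially encoded genes summed to 63010 and 56570 CPM in them, beside 85350 to 117300 in the other 4. In gastrocnemius, KO-sham library 1 lay at 47.5 to 143 from the rest of its group, whose other pairs reached 48.3, and had the lowest TMM factor of its table, 0.900. A fit without both WT-DHT libraries was added after seeing the data.

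*Actn3* was high in every WT and low in every KO library. *Actn3* lay between 5977 and 7052 in WT-sham (median 6724), between 7826 and 9617 in WT-ORX (median 8964), between 8592 and 10350 in WT-empty (median 9812) and between 6164 and 7703 in WT-DHT (median 7276). In the KO groups it lay between 35.8 and 54.8 in KO-sham (median 46.5), between 34.3 and 53.1 in KO-ORX (median 45.2), between 56.6 and 83.2 in KO-empty (median 67.5) and between 61.4 and 77.5 in KO-DHT (median 66.8). Within WT it was called higher with ORX, by 0.42, and lower with DHT, at −0.45, as log2 fold changes by edgeR. Both tissues were rich in markers of muscle fibers, 8 of which had a summed CPM between 185000 and 255800 in WT-sham (median 198800) and between 274000 and 319900 in WT-empty (median 296600).

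Levels per kilobase of exon in the GENCODE M21 annotation differed widely among the genes. As means over all libraries of a table, *Mdh1*, the cytosolic malate dehydrogenase of the shuttle, reached 274 CPM per kilobase in gastrocnemius and 229 in spinalis. The succinate dehydrogenase subunits *Sdhd* and *Sdhb* followed, at 211 and 198 in gastrocnemius. The shuttle's aspartate-glutamate carrier was represented mainly by *Slc25a12*, at 56.1 CPM per kilobase in gastrocnemius, beside 0.405 for its paralog *Slc25a13*. *Sucla2*, the ATP-forming succinyl-CoA ligase subunit, lay at 139 and *Suclg2*, the GTP-forming one, at 10.5. *Pcx*, pyruvate carboxylase, stood at 8.96 in gastrocnemius and 38.8 in spinalis, levels from tables normalized separately and from mice of different sex and age. These levels are descriptions without a test. *Mpc1* is uncertain, because the listed pseudogene *Mpc1-ps* had a mean of 165 CPM in gastrocnemius and could share its reads. Exons of *Idh3b*, *Mdh1*, *Pdha1*, *Got2*, *Slc25a11* and *Mpc1* overlap a gene on the opposite strand in that annotation, and since the strand setting of the counting is not given in the sources used here, their counts are uncertain to that extent.

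ORX lowered genes of pyruvate entry in WT gastrocnemius. Of the 33 genes, 4 were called, all lower and all in pyruvate entry: *Pdha1*, *Mpc2*, *Pdhx* and *Dlat*. Over all genes of the table, 3.41% were called lower and 2.04% higher. The median log2 fold change was −0.22 for the 11 pyruvate entry genes, −0.05 for the 16 cycle genes, −0.12 for the 6 shuttle genes and 0.01 for all genes. Of the cycle genes, 10 had a negative value, or 8 with library-size scaling. The ranges of values here and below are in CPM. *Pdha1*, the α subunit of pyruvate dehydrogenase, lay between 437 and 465 in WT-sham (median 446) and between 332 and 390.3 in WT-ORX (median 358), with a log2 fold change of −0.31 (SE 0.049, q = 7.4e-05 by edgeR). Each WT-ORX library was thus below each WT-sham library. *Mpc2*, a subunit of the pyruvate carrier, lay between 176 and 211 in WT-sham (median 203) and between 139.5 and 162 in WT-ORX (median 159), again without overlap, with a log2 fold change of −0.35 (SE 0.064, q = 0.00057 by edgeR). *Pdhx*, which anchors the complex's dihydrolipoamide dehydrogenase, lay between 78.5 and 95.8 in WT-sham (median 88.8) and between 69.9 and 80.1 in WT-ORX (median 76.1), with a log2 fold change of −0.23 (SE 0.052, q = 0.0042 by edgeR). *Dlat*, the acetyltransferase core, lay between 137 and 165 in WT-sham (median 158) and between 120.2 and 147 in WT-ORX (median 129), with a log2 fold change of −0.23 (SE 0.056, q = 0.0063 by edgeR). The groups overlapped for these last genes, and when 1 library was left out, *Pdhx* was still called in 18 of 23 fits and *Dlat* in 14 of 23. The count of 4 dropped to 2 without WT-ORX library 4 or 6 or WT-sham library 1, 2 or 3, and was 2 with library-size scaling. The summed CPM of mitochondrially encoded genes lay between 126800 and 171700 in WT-sham (median 152100) and between 97900 and 152300 in WT-ORX (median 116800), with overlap and a lower median after ORX, and its part in these values was not tested.

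In KO gastrocnemius, ORX lowered genes of all 3 roles. Of the 33 genes, 9 were called lower, 4 of pyruvate entry (*Pdhx*, *Dlat*, *Pdha1* and *Mpc2*), 4 of the cycle (*Idh3g*, *Dlst*, *Cs* and *Fh1*) and *Slc25a12* of the shuttle. Over all genes, 3.58% were called lower and 1.99% higher. The median log2 fold change was −0.19 over the 33 genes and 0.01 over all genes, and 32 of the 33 had a negative value, or 27 with library-size scaling. *Pdhx* lay between 94.6 and 113 in KO-sham (median 107) and at 75.0, 76.7, 82.3, 82.6 and 86.7 in KO-ORX, with a log2 fold change of −0.39 (SE 0.055, q = 2.5e-05 by edgeR). The *Dlat* libraries lay between 165 and 183 in KO-sham (median 177) and at 125, 135, 143, 146 and 146 in KO-ORX, with a log2 fold change of −0.33 (SE 0.059, q = 0.00045 by edgeR). For both genes each KO-ORX library was below each KO-sham library. *Idh3g*, a regulatory subunit of NAD-dependent isocitrate dehydrogenase, lay between 247 and 279 in KO-sham (median 261) and at 207, 208, 215, 221 and 224 in KO-ORX, without overlap, with a log2 fold change of −0.28 (SE 0.048, q = 0.00031 by edgeR). *Dlst*, the succinyltransferase of the 2-oxoglutarate dehydrogenase complex, lay between 212 and 257 in KO-sham (median 237) and at 175, 184, 199, 201 and 207 in KO-ORX, also without overlap, with a log2 fold change of −0.29 (SE 0.058, q = 0.0017 by edgeR). *Pdha1* lay between 434 and 508 in KO-sham (median 463) and at 349.7, 359, 398, 399 and 423 in KO-ORX, with a log2 fold change of −0.27 (SE 0.052, q = 0.0011 by edgeR), and *Mpc2* lay between 185 and 238 in KO-sham (median 217) and at 152, 159.9, 163, 174 and 191 in KO-ORX, with a log2 fold change of −0.34 (SE 0.068, q = 0.0014 by edgeR). The *Pdha1* groups did not overlap and the *Mpc2* groups did. *Cs*, citrate synthase, *Fh1*, fumarase, and *Slc25a12* had log2 fold changes of −0.24, −0.20 and −0.26, and when 1 library was left out they were still called in 15 of 23, 8 of 23 and 18 of 23 fits. The count depended on scaling: with library-size scaling the median of all genes was 0.12 in this comparison and 1 of the 33 genes was called, while the 33 genes' median relative to that of all genes was −0.20, against −0.21 with TMM. A fit of only the groups compared called 4, and DESeq2 called 15. Without KO-sham library 1, 10 were called. Mitochondrially encoded genes summed to values between 118700 and 181600 in KO-sham (median 154500) and between 113500 and 130100 in KO-ORX (median 127300), again overlapping with a lower median after ORX.

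A difference between the genotypes in the ORX response was not called for any of the 33 genes. By edgeR's interaction test 0 passed q ≤ 0.05, 8 had an unadjusted p-value under 0.05, limma-voom called 0 DESeq2 called 1, and edgeR without KO-sham library 1 called 0. Over all genes, 0.0228% were called in either direction. All 16 cycle genes had a negative interaction value, with a median of −0.13, beside 0.00 for all genes, and with library-size scaling 15 of the 16 did. The smallest adjusted p-value was that of *Idh3b*, a subunit of NAD-dependent isocitrate dehydrogenase, with a log2 interaction of −0.28 (SE 0.076, q = 0.15 by edgeR). So the larger number of calls in KO is not a tested difference between the genotypes.

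**Figure D1:**
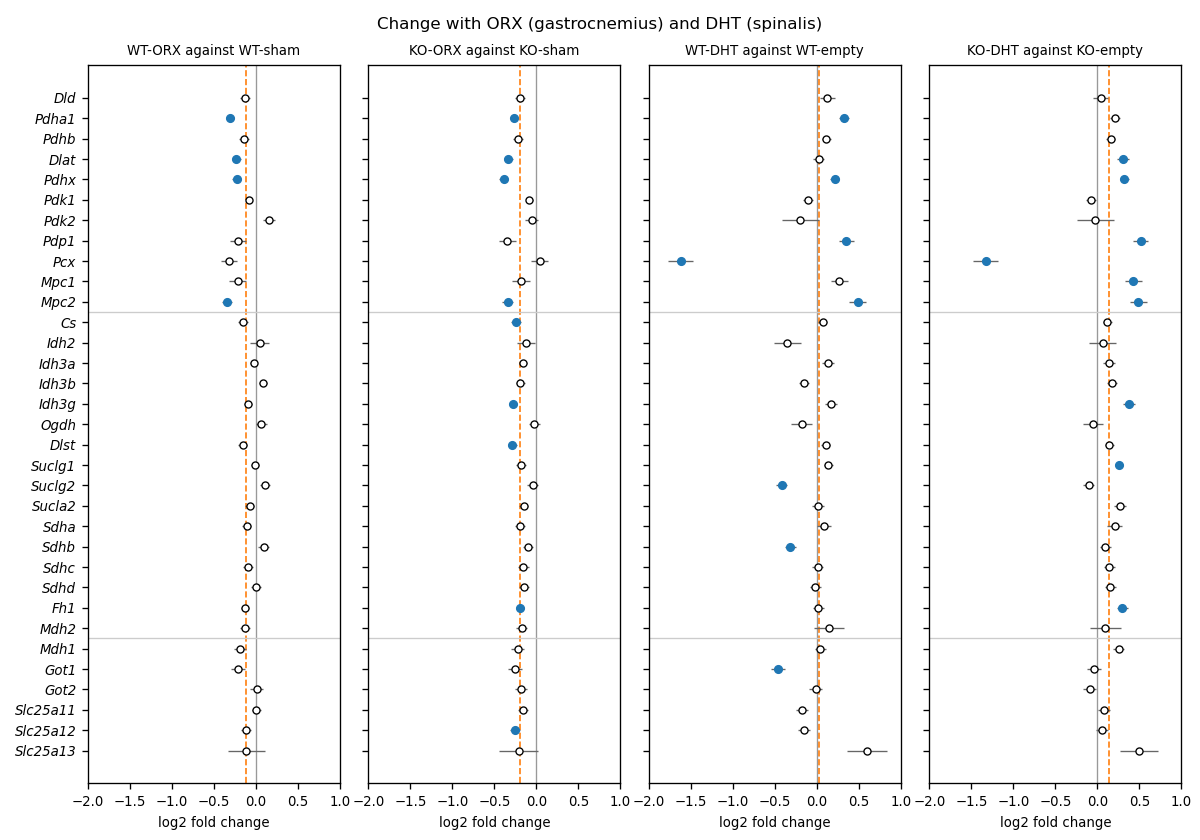
Log2 fold change of each of the 33 genes (points, with standard error bars) with ORX in gastrocnemius and with DHT in spinalis, in WT and KO; filled points passed q ≤ 0.01, the dashed line is the median of the 33 genes, and horizontal lines separate pyruvate entry, cycle and shuttle. Filled points lie left of 0 in both ORX panels, and *Pcx* lies far left in both DHT panels.

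Genes of the cycle were higher in KO-sham than in WT-sham muscle. Of the 33 genes, 12 were called higher and 1 lower, 9 of the higher ones in the cycle (*Idh3a*, *Idh3b*, *Idh3g*, *Dlst*, *Suclg1*, *Sucla2*, *Sdha*, *Sdhd* and *Fh1*), 2 in pyruvate entry (*Pdhx* and *Pdk1*) and *Slc25a12* in the shuttle. Over all genes, 2.48% were called higher and 2.82% lower. All 16 cycle genes had a positive value, also with library-size scaling, with a median of 0.23, and the median of all genes was −0.01. *Sucla2* lay between 477 and 512 in WT-sham (median 498) and between 579 and 718 in KO-sham (median 661), with a log2 fold change of 0.40 (SE 0.05, q = 3.7e-06 by edgeR). *Idh3g* lay between 201 and 237 in WT-sham (median 212) and between 247 and 279 in KO-sham (median 261), with a log2 fold change of 0.29 (SE 0.045, q = 9.5e-05 by edgeR), and *Idh3b*, a further subunit of the same enzyme, lay between 326 and 396 in WT-sham (median 374) and between 433 and 486 in KO-sham (median 460.4), with a log2 fold change of 0.32 (SE 0.052, q = 0.00015 by edgeR). For these 3 genes each KO-sham library was above each WT-sham library. *Sdha*, the flavoprotein of succinate dehydrogenase, lay between 579 and 762 in WT-sham (median 675) and between 749 and 908 in KO-sham (median 834), with a log2 fold change of 0.31 (SE 0.054, q = 0.00041 by edgeR). *Slc25a12* lay between 349 and 437 in WT-sham (median 394) and between 433 and 515 in KO-sham (median 495), with a log2 fold change of 0.29 (SE 0.055, q = 0.0008 by edgeR). *Fh1* lay between 215 and 239.7 in WT-sham (median 228) and between 243 and 293 in KO-sham (median 273), without overlap, with a log2 fold change of 0.24 (SE 0.047, q = 0.00096 by edgeR). The *Sdha* and *Slc25a12* groups overlapped. *Pcx* was the gene called lower, and lay between 47.6 and 62.9 in WT-sham (median 49.4) and between 30.1 and 44.1 in KO-sham (median 37.7), with a log2 fold change of −0.44. Its groups did not overlap, and the call was lost without KO-sham library 3 or 6 or WT-sham library 4, with values between −0.48 and −0.37 over all such fits. In GENCODE M21 on GRCm38, *Pcx* lies 239.5 kb from *Actn3* on chromosome 19, and what this proximity contributes was not tested. The calls of *Idh3a*, *Sdhd* and *Pdk1* were lost with library-size scaling and in a fit of only the groups compared. When 1 library was left out, they were kept in 19 of 23, 17 of 23 and 23 of 23 fits. Without KO-sham library 1, 14 genes were called higher and 1 lower. Genotype went with depth in these groups, since each KO-sham library was the smaller, and the part of depth in these differences was not tested.

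After ORX, 2 genes were called higher in KO than in WT. Over all genes, 1.07% were called higher and 2.73% lower, and the median log2 fold change was 0.10 for the 33 genes and 0.01 for all. *Sucla2* lay between 448 and 499 in WT-ORX (median 473) and at 570.2, 572, 575, 597 and 650 in KO-ORX, with a log2 fold change of 0.33 (SE 0.052, q = 0.00013 by edgeR). *Pdk1*, a kinase that inactivates pyruvate dehydrogenase, lay between 97.5 and 105 in WT-ORX (median 103) and at 115, 115, 116, 118 and 121 in KO-ORX, with a log2 fold change of 0.19 (SE 0.038, q = 0.0018 by edgeR). Neither gene's groups overlapped. Of 5 adipocyte markers, 4 were positive in this comparison, with a median of 0.52 and 3 at an unadjusted p-value under 0.05. None of these markers was called by edgeR, and their part in the values of the 33 genes was not tested. The comparisons of KO with WT share their groups with the comparisons of ORX with sham, so these values are not independent of those above.

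In WT spinalis, DHT lowered 4 of the 33 genes, and calls of higher pyruvate entry genes depended on which libraries were used. Of the 33 genes, 4 were called lower (*Pcx*, *Suclg2*, *Got1* and *Sdhb*) and 4 higher (*Pdha1*, *Mpc2*, *Pdhx* and *Pdp1*). Without WT-DHT libraries 39KR and 50KR, 5 were called, which were the 4 lower genes and *Pdha1*. Over all genes, 6.63% were called higher and 4.64% lower. Positive values were found for 8 of 11 pyruvate entry genes, 10 of 16 cycle genes and 2 of 6 shuttle genes. The medians of these roles were 0.13, 0.02 and −0.08. With library-size scaling the calls were 2 higher and 6 lower. The median log2 fold change was 0.02 for the 33 genes and −0.01 for all genes with TMM, and with that scaling −0.06 and −0.08, so that only the median of the 33 genes changed sign. It was also negative without WT-DHT library 50KR, at −0.01, the same as the median of all genes in that fit, and was 0.03 without 39KR and 50KR. *Pdha1* lay at 335, 339.5, 343, 344 and 392 in WT-empty and between 390.1 and 475 in WT-DHT (median 443), with a log2 fold change of 0.32 (SE 0.056, q = 0.00015 by edgeR). *Mpc2* lay at 121, 145, 154, 176 and 198 in WT-empty and between 201 and 258 in WT-DHT (median 223), with a log2 fold change of 0.49 (SE 0.1, q = 0.001 by edgeR). The *Mpc2* groups did not overlap, and 1 WT-empty library of *Pdha1* reached into the WT-DHT range. *Pdhx* and *Pdp1*, a phosphatase that activates pyruvate dehydrogenase, had log2 fold changes of 0.21 and 0.35, and were still called in 14 of 22 and 8 of 22 fits without 1 library. Without 39KR and 50KR the log2 fold changes were 0.27 for *Pdha1*, 0.41 for *Mpc2*, 0.16 for *Pdhx* and 0.35 for *Pdp1*, and the q of *Mpc2* by edgeR lay just above 0.01. With 39KR alone or 50KR alone left out, 6 and 6 of the 33 genes were called. *Suclg2* lay at 44.5, 47.8, 49.3, 52.4 and 54.2 in WT-empty and between 33.7 and 41.0 in WT-DHT (median 37.0), with a log2 fold change of −0.42 (SE 0.061, q = 1.3e-05 by edgeR). *Got1*, the cytosolic aspartate aminotransferase, lay at 240.1, 287, 293, 322 and 336 in WT-empty and between 184 and 236 in WT-DHT (median 213), with a log2 fold change of −0.46 (SE 0.084, q = 0.00026 by edgeR). *Sdhb*, the iron-sulfur subunit of succinate dehydrogenase, lay at 337, 344, 358, 375 and 419 in WT-empty and between 282 and 309 in WT-DHT (median 296), with a log2 fold change of −0.32 (SE 0.066, q = 0.0011 by edgeR). For each of these 3 genes all WT-DHT libraries were below all WT-empty libraries. Mitochondrially encoded genes summed to values between 34140 and 96070 in WT-empty (median 57160) and between 56570 and 117300 in WT-DHT (median 94080), which overlapped with a higher median under DHT.

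*Pcx* had the largest fold change among the 33 genes in both DHT comparisons. Pyruvate carboxylase replenishes oxaloacetate and is abundant in adipocytes, where it serves lipid synthesis. Its level lay at 233, 303, 331, 390.4 and 399 in WT-empty and between 104 and 115 in WT-DHT (median 107), with a log2 fold change of −1.62 (SE 0.15, q = 1.6e-08 by edgeR). In KO it lay at 181, 198, 246, 259 and 306 in KO-empty and between 72.5 and 122 in KO-DHT (median 94.0), with a log2 fold change of −1.33 (SE 0.15, q = 1.8e-06 by edgeR). All DHT libraries were below all empty libraries in both genotypes, and the call was kept in all 22 fits without 1 library in each. The value in WT was −1.64 without WT-DHT libraries 39KR and 50KR. Adipocyte markers varied in the same tissue. The summed level of 5 of 5 adipocyte markers lay between 99.4 and 250.2 in WT-empty (median 186), between 58.4 and 227 in WT-DHT (median 102), between 121 and 237 in KO-empty (median 209) and between 92.8 and 276 in KO-DHT (median 146), with *Adipoq* and *Cidec* the most abundant. *Retn* came nearest to a call, in WT, with a log2 fold change of −1.25 and a q that rounds to 0.01 but lies above it by edgeR, and in KO it had −0.74 (q = 0.17 by edgeR). *Lep* had positive values, 1.24 in WT and 1.10 in KO. *Retn* was called in WT in 9 of 28 other fits, DESeq2 and limma-voom among them, at −1.60 to −1.25. None of these 5 markers was called with DHT in either genotype by edgeR with all libraries, with 3 and 2 of them at an unadjusted p-value under 0.05 in WT and KO, and the empty and DHT groups overlapped for each of them. The brown adipocyte markers *Ucp1*, *Cidea* and *Elovl3* summed to values between 1.06 and 45.3 in WT-empty (median 25.0), between 1.19 and 43.9 in WT-DHT (median 10.3), between 6.09 and 52.9 in KO-empty (median 12.1) and between 1.22 and 225 in KO-DHT (median 1.93), and KO-DHT library 63KR was the highest. With all libraries the 3 were positive with DHT in KO, with a median of 0.85 and *Elovl3* at 0.33, and negative in WT, with a median of −1.01. Leaving out library 63KR turned the median in KO negative, and *Elovl3* was then called lower, at −2.73. The part of these cells in the *Pcx* values was not tested, and in bulk muscle fewer cells of a type and less RNA per cell cannot be told apart.

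In KO spinalis, DHT raised 8 of the 33 genes and lowered *Pcx*. The genes called higher were *Pdhx*, *Pdp1*, *Mpc2*, *Dlat* and *Mpc1* of pyruvate entry and *Idh3g*, *Suclg1* and *Fh1* of the cycle. Over all genes, 2.86% were called higher and 1.75% lower, and the median log2 fold change was 0.14 for the 33 genes and −0.01 for all. *Pdhx* lay at 74.4, 76.8, 77.3, 82.0 and 82.8 in KO-empty and between 94.2 and 102 in KO-DHT (median 98.1), with a log2 fold change of 0.32 (SE 0.054, q = 0.00036 by edgeR). *Pdp1* lay at 49.0, 61.2, 63.9, 67.3 and 77.7 in KO-empty and between 73.5 and 103 in KO-DHT (median 93.9), with a log2 fold change of 0.52 (SE 0.093, q = 0.00073 by edgeR). *Pdhx* did not overlap between the groups and *Pdp1* did. *Idh3g* lay at 183, 197, 206, 217 and 225 in KO-empty and between 254 and 283 in KO-DHT (median 265), with a log2 fold change of 0.38 (SE 0.073, q = 0.0014 by edgeR). *Suclg1*, the subunit shared by both succinyl-CoA ligases, lay at 179, 189, 202, 208 and 216 in KO-empty and between 228 and 247 in KO-DHT (median 239), with a log2 fold change of 0.26 (SE 0.051, q = 0.0019 by edgeR). *Mpc2* lay at 140.2, 141, 148, 152 and 179 in KO-empty and between 187 and 237 in KO-DHT (median 219), with a log2 fold change of 0.49 (SE 0.1, q = 0.0027 by edgeR). For these 3 genes each KO-DHT library was above each KO-empty library. *Dlat*, *Mpc1* and *Fh1* had log2 fold changes of 0.31, 0.43 and 0.30, and when 1 library was left out they were still called in 15 of 22, 9 of 22 and 13 of 22 fits. Without KO-empty library 17KR 5 genes were called in place of 9, and a fit of only the groups compared called 5. Without KO-DHT library 63KR, which had the highest brown adipocyte markers, the count was 9. Without WT-DHT libraries 39KR and 50KR, which enter through the shared estimate of spread and scaling, all 9 were called and also *Pdha1* and *Sucla2*. The mitochondrially encoded sum lay between 65400 and 107100 in KO-empty (median 92850) and between 53830 and 156500 in KO-DHT (median 103500), and the part of this sum in the DHT values was not tested.

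The DHT response differed between the genotypes for 3 cycle genes. *Sdhb*, *Idh3b* and *Suclg2* had positive interactions, and over all genes 1.34% were called with a positive and 1.9% with a negative interaction. The median over the 33 genes was 0.16, beside −0.01 over all genes. *Sdhb* fell with DHT in WT, at −0.32, and in KO lay at 343, 344, 376, 376 and 449 in KO-empty and between 377 and 416 in KO-DHT (median 407), a log2 fold change of 0.10. Its interaction was 0.41 (SE 0.094, q = 0.012 by edgeR). *Idh3b* lay at 304, 313, 314, 330.1 and 366 in WT-empty and between 268 and 318 in WT-DHT (median 293), and at 341, 354, 379.5, 381 and 398 in KO-empty and between 389 and 429 in KO-DHT (median 421). Its log2 fold change was −0.16 in WT and 0.17 in KO, neither of them called, and the interaction was 0.33 (SE 0.083, q = 0.025 by edgeR). *Suclg2* lay at 48.2, 49.6, 53.1, 53.4 and 56.1 in KO-empty and between 45.5 and 50.0 in KO-DHT (median 49.5), with a log2 fold change of −0.11 in KO beside −0.42 in WT, and the interaction was 0.32 (SE 0.086, q = 0.04 by edgeR). *Got1* had a similar value, 0.42, and did not pass (q = 0.052 by edgeR). The *Sdhb* call was kept in 22 of 22 fits without 1 library, that of *Idh3b* in 17 of 22 and that of *Suclg2* in 8 of 22, with interactions between 0.36 and 0.48, between 0.28 and 0.36 and between 0.28 and 0.35. The count was 1 without WT-empty library 4KR, KO-empty library 17KR or 61KR, or WT-DHT library 34KR, 2 without KO-DHT library 63KR, and 5 with library-size scaling. Without WT-DHT libraries 39KR and 50KR it was 5, the same 3 genes with interactions of 0.45, 0.37 and 0.38, and also *Dlat* (0.37) and *Fh1* (0.39).

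**Figure D2:**
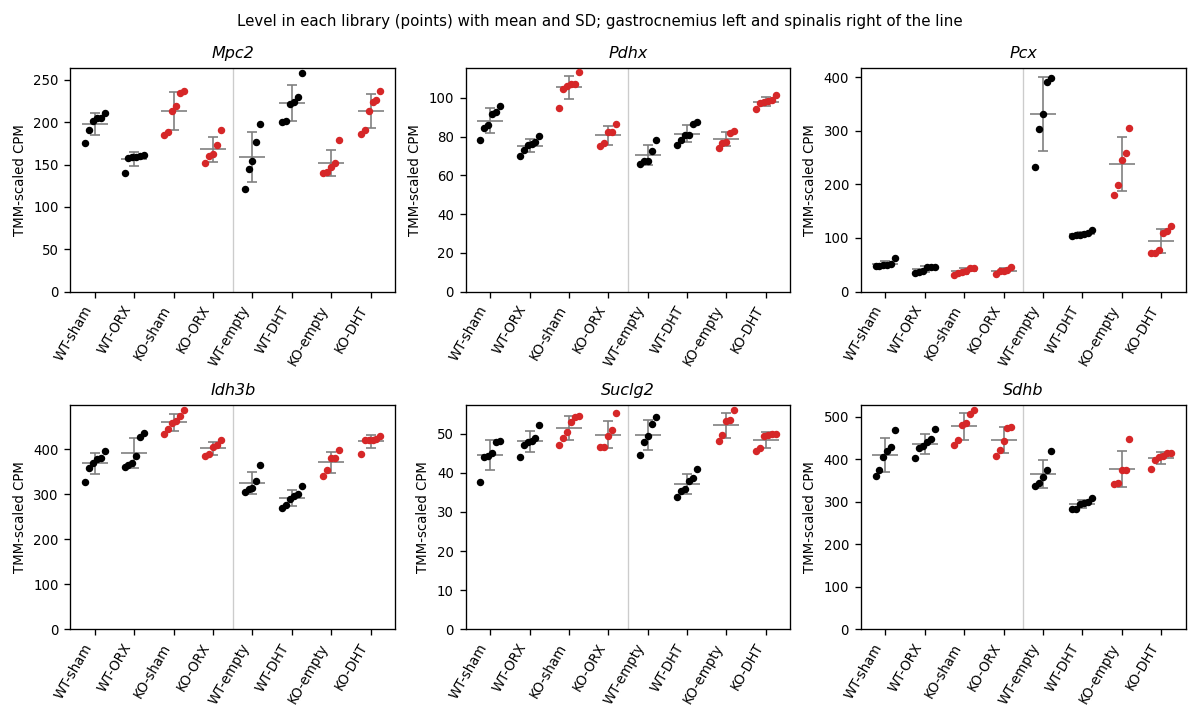
TMM-scaled CPM of 6 genes in each library (points; black for WT, red for KO), with the mean and SD of each group. *Pcx* in the DHT libraries lies below the empty libraries of the same genotype, and *Sdhb* and *Suclg2* in WT-DHT lie below all other spinalis groups.

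With empty implants, 3 genes were called higher in KO than in WT spinalis, *Dlst*, *Pdhb* and *Got2*. Over all genes, 1.75% were called higher and 2.5% lower, and the median log2 fold change was 0.16 for the 33 genes and 0.01 for all. *Dlst* lay at 191, 191, 199, 204 and 214 in WT-empty and at 233, 247, 255, 266 and 269 in KO-empty, with a log2 fold change of 0.35 (SE 0.056, q = 0.00028 by edgeR). *Pdhb*, the second catalytic subunit of pyruvate dehydrogenase, lay at 139, 150.1, 151, 155 and 157 in WT-empty and at 163, 168, 173, 191 and 192 in KO-empty, with a log2 fold change of 0.24 (SE 0.057, q = 0.0084 by edgeR). *Got2*, the mitochondrial aspartate aminotransferase, lay at 135, 141, 147, 159 and 162 in WT-empty and at 169, 173, 191, 194 and 215 in KO-empty, with a log2 fold change of 0.34 (SE 0.081, q = 0.0089 by edgeR). None of these 3 pairs of groups overlapped, yet *Pdhb* and *Got2* were each called in only 8 of 22 fits without 1 library. The count was 1 when a single library was left out that was any of KO-DHT 40KR, KO-empty 61KR, 62KR or 64KR, WT-DHT 15KR or 34KR, or WT-empty 14KR, 35KR, 4KR or 7KR. A fit of only the groups compared called 0, and *Dlst* and *Got2* were called without WT-DHT libraries 39KR and 50KR.

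Under DHT, most of the 33 genes were higher in KO than in WT. The 20 genes called higher were 13 of the 16 cycle genes (*Cs*, *Idh3b*, *Idh3g*, *Ogdh*, *Dlst*, *Suclg1*, *Suclg2*, *Sucla2*, *Sdha*, *Sdhb*, *Sdhc*, *Sdhd* and *Fh1*), 4 of the 6 shuttle genes (*Mdh1*, *Got1*, *Slc25a11* and *Slc25a12*) and 3 of the 11 pyruvate entry genes (*Pdhb*, *Dlat* and *Pdhx*). Over all genes, 5.13% were called higher and 6.51% lower. The median log2 fold change was 0.39 for the cycle, 0.39 for the shuttle, 0.15 for pyruvate entry and 0.01 for all genes. Each KO-DHT library lay above each WT-DHT library for all 20. This rests on the same values as the calls, and the share over all genes was not computed. *Got1* lay between 184 and 236 in WT-DHT (median 213) and between 302 and 375 in KO-DHT (median 344), with a log2 fold change of 0.67 (SE 0.08, q = 1.3e-06 by edgeR). *Idh3b* lay in the ranges given above, with a log2 fold change of 0.52 (SE 0.056, q = 2.6e-07 by edgeR). *Dlst* lay between 195 and 234 in WT-DHT (median 217) and between 268 and 294 in KO-DHT (median 281), with a log2 fold change of 0.38 (SE 0.051, q = 6e-06 by edgeR). These genes belong to the shuttle, to isocitrate dehydrogenase and to the 2-oxoglutarate dehydrogenase complex. *Sucla2* lay between 381 and 459 in WT-DHT (median 415) and between 541 and 640 in KO-DHT (median 578), with a log2 fold change of 0.48 (SE 0.066, q = 8e-06 by edgeR). *Mdh1* lay between 513 and 549 in WT-DHT (median 529) and between 639.9 and 766 in KO-DHT (median 717), with a log2 fold change of 0.41 (SE 0.061, q = 2.4e-05 by edgeR). *Sdhb*, with a log2 fold change of 0.45 (SE 0.063, q = 1.1e-05 by edgeR), was among the 3 genes of the interaction. *Ogdh*, the catalytic subunit of its complex, had a log2 fold change of 0.58, and the other 13 called genes lay between 0.20 and 0.46. The count lay between 18 and 21 without 1 library, and was 19 without KO-DHT library 63KR. All 20 were called without WT-DHT libraries 39KR and 50KR, and also *Idh2*. Apart from *Sdhb*, *Idh3b* and *Suclg2*, the interaction over all libraries was not called for these genes, so that a larger difference under DHT than with empty implants is not shown for them. Between KO-DHT and WT-DHT all 5 adipocyte markers were positive, with a median of 0.56 and 1 at an unadjusted p-value under 0.05. The median was 0.86 with 5 under 0.05 without WT-DHT library 5KR, and 0.36 with 0 without KO-DHT library 63KR. All 3 brown adipocyte markers were positive, with a median of 1.36, or −1.998 without 63KR. No marker of either list was called by edgeR with all libraries, and their part in the values of the 33 genes was not tested.

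**Figure D3:**
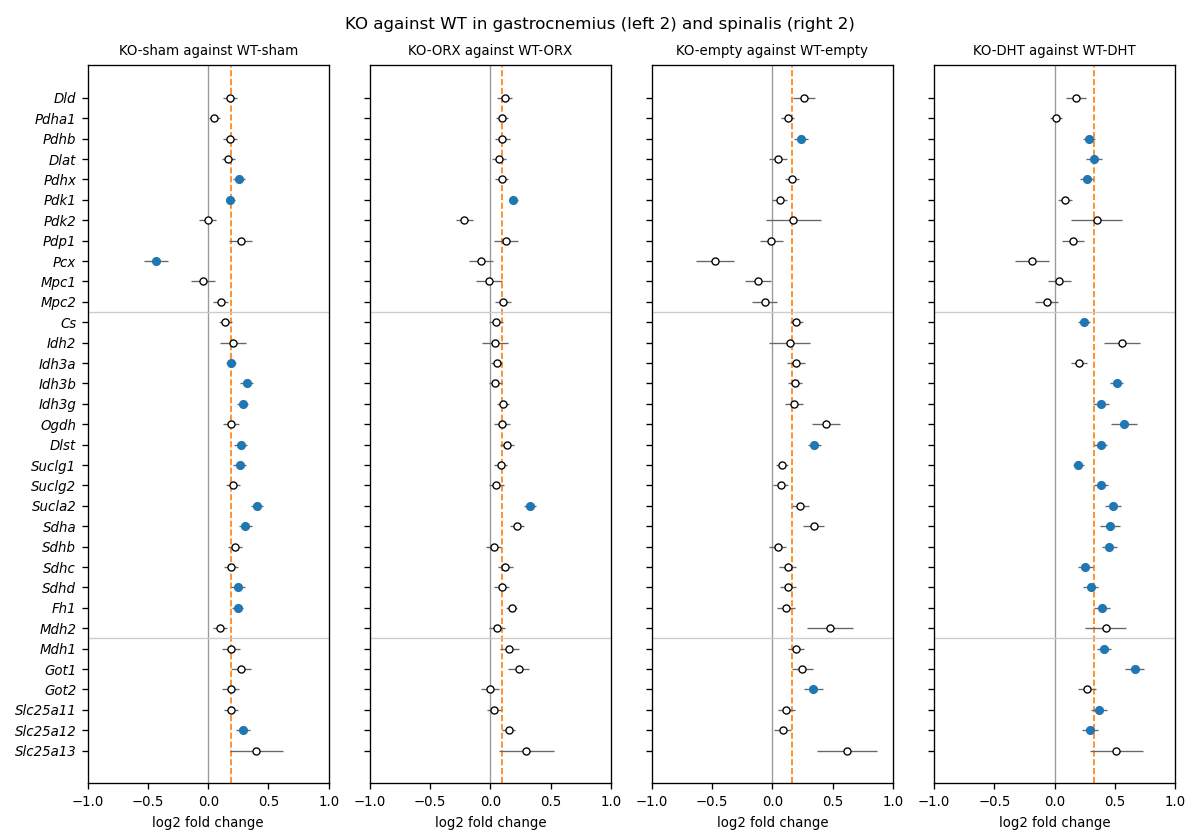
Log2 fold change of KO against WT for each of the 33 genes (points, with standard error bars) in the 4 treatment groups; filled points passed q ≤ 0.01 and the dashed line is the median of the 33 genes. Of the 33 points, 20 are filled in the comparison of KO-DHT with WT-DHT and 2 in that of KO-ORX with WT-ORX.

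The experiments share no libraries, so the response to androgen loss can be set beside that to androgen. In WT, 3 genes were called lower with ORX and higher with DHT, *Mpc2*, *Pdha1* and *Pdhx*, which is 75.0% of the 4 genes of each list. In KO, 5 genes were, *Dlat*, *Fh1*, *Idh3g*, *Mpc2* and *Pdhx*, which is 55.6% of the 9 genes lower with ORX and 62.5% of the 8 higher with DHT. Among all genes in both tables, those called lower with ORX and higher with DHT numbered 376 in WT, 63.3% of the ORX list and 34.2% of the DHT list, and 230 in KO, 36.7% and 48.2%. *Mpc2* and *Pdhx* were in the shared list of both genotypes. Of the 3 WT genes, *Pdha1* alone was called with DHT without WT-DHT libraries 39KR and 50KR. With library-size scaling the shared list was shorter, in KO because *Pdhx* was the 1 gene called with ORX, and held 2 genes in WT, *Mpc2* and *Pdha1*, and 1 in KO, *Pdhx*. Fits of only the groups compared gave 2 genes in WT, *Mpc2* and *Pdha1*, and 2 in KO, *Idh3g* and *Pdhx*, while DESeq2 gave 3 and 8. The tissues, the sexes and the ages differed between the experiments, so that these cannot be told apart from the treatment.

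Other genes of the pathway changed in part. Of 32 such genes, 3 were called higher with ORX in WT and 1 in KO. With DHT, 1 and 8 were called higher and lower in WT, and 1 and 1 in KO. The shares of all genes called higher with ORX were 2.04% in WT and 1.99% in KO. For DHT the shares were 6.63% higher and 4.64% lower in WT, and 2.86% and 1.75% in KO. *Gpd2*, which passes electrons of the glycerol phosphate shuttle to the respiratory chain, was higher with ORX and lower with DHT in WT. It lay between 178 and 206 in WT-sham (median 189) and between 233 and 289.9 in WT-ORX (median 267), and between 314 and 401 in WT-empty (median 373) and between 152 and 202 in WT-DHT (median 179). Its log2 fold changes were 0.48 and −0.99, and neither pair of groups overlapped. The DHT interaction was called for 5 of the 32 genes, all positive, beside 1.34% of all genes positive and 1.9% negative. These were *Gpt2* (0.92), an alanine aminotransferase, *Oxct1* (0.77), the ketone body transferase, and *Gpd2* (0.69). The others were *Me3* (0.48), a mitochondrial malic enzyme, and *Glud1* (0.32), glutamate dehydrogenase. Each of these 5 genes fell with DHT in WT, with log2 fold changes of −0.59, −0.86, −0.99, −0.36 and −0.32, and was not called in KO. In KO-empty muscle *Gpd2*, *Gpt2* and *Oxct1* were lower than in WT-empty, at −0.80, −0.56 and −0.50, and *Gpd2* was lower in KO-ORX than in WT-ORX at −0.47. The interactions share these empty groups. Between genotypes, *Me3* was higher in KO, at 0.57 in sham, 0.45 in empty and 0.93 in DHT muscle, and *Me1*, the cytosolic malic enzyme, was lower at −0.38 in sham and −0.54 in ORX muscle.

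Among 9 regulators of mitochondrial genes, *Esrra*, the nuclear receptor ERRα, was called in all 4 treatment comparisons. It lay between 69.8 and 82.6 in WT-sham (median 77.0) and between 50.1 and 64.3 in WT-ORX (median 59.0), and between 69.8 and 78.2 in KO-sham (median 73.7) and between 48.8 and 57.9 in KO-ORX (median 53.2), with log2 fold changes of −0.40 in WT and −0.46 in KO. With DHT it was higher, at 0.34 in WT and 0.56 in KO. The WT call with DHT was kept in 15 of 28 other fits, and was lost without WT-DHT libraries 39KR and 50KR, while the other 3 calls were kept in all. The other 8 regulators, *Ppargc1a* among them, were not called with treatment by edgeR. Of 8 genes of the outer membrane and protein import, *Tomm20*, an import receptor, was lower with ORX at −0.28 in WT and −0.28 in KO, and higher with DHT in KO at 0.51, calls kept in 29 of 29, 25 of 29 and 28 of 28 other fits. The channel gene *Vdac2* was called in KO alone by edgeR, at −0.21 with ORX and 0.32 with DHT, and had no called interaction. These calls were kept in 19 of 29 and 20 of 28 other fits, that with ORX being lost with library-size scaling and both being lost in a fit of only the groups compared. Between genotypes, *Vdac1* and *Timm44* were higher in KO in sham (0.25 and 0.20) and in DHT muscle (0.24 and 0.27), and *Timm23* was lower in sham muscle (−0.41). In sham muscle these calls were kept in 28 of 29 other fits for *Vdac1*, 23 of 29 for *Timm44* and 26 of 29 for *Timm23*. Under DHT they were kept in 17 of 28 for *Vdac1*, which was lost without WT-DHT libraries 39KR and 50KR, and in 25 of 28 for *Timm44*.

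Markers of slow or oxidative fibers had lower values with DHT, and calls depended on the fit. All 8 had negative log2 fold changes in both genotypes, also with library-size scaling, with medians of −1.10 in WT and −1.62 in KO. Of the 8, 6 in WT and 7 in KO had an unadjusted p-value under 0.05, and none was called in any comparison by edgeR with all libraries. The count in WT rested on 1 library: without WT-empty library 4KR, 0 of the 8 were under 0.05, with a median of −0.74. With DHT in KO, DESeq2 called *Myl2* and limma-voom *Myh7* and *Tnni1*, and edgeR without KO-DHT library 40KR called these 3 and *Tnnc1*, all lower. Their summed level, of which *Myh2* made the largest part, lay between 2645 and 4084 in WT-empty (median 3657) and between 1645 and 3931 in WT-DHT (median 2838), and between 3077 and 5338 in KO-empty (median 4149) and between 2027 and 3479 in KO-DHT (median 2620). The groups overlapped in each genotype, with higher medians in the empty groups. Without WT-DHT libraries 39KR and 50KR, 7 of the 8 were negative in WT, with a median of −1.24. With ORX, 7 of the 8 were positive in WT and 6 in KO, with medians of 0.33 and 0.23 and 5 and 1 at an unadjusted p-value under 0.05. The WT median was 0.25 with 2 under 0.05 without WT-ORX library 4, and 0.48 with 6 without WT-sham library 2. In KO it was 0.08 with 0 under 0.05 without KO-ORX library 2, and 0.37 with 5 without KO-sham library 2. The sums of these 8 markers lay between 2025 and 3699 in WT-sham (median 2646), between 2144 and 2885 in WT-ORX (median 2510), between 2222 and 3679 in KO-sham (median 2531) and between 2339 and 3051 in KO-ORX (median 2724). In KO-empty muscle all 8 were positive against WT-empty, with a median of 0.55 and 0 at an unadjusted p-value under 0.05. That median was 0.91 with 2 under 0.05 without WT-empty library 4KR, and 0.32 with 0 without WT-empty library 14KR. The part of these fibers in the values of the 33 genes was not tested.

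The 8 markers of skeletal muscle fibers were mixed with treatment. With ORX, 7 of the 8 were positive in WT (median 0.06) and 2 in KO (median −0.11). With DHT, 4 were positive in WT (median −0.01) and 3 in KO (median −0.05). Among these genes, *Myh1*, the myosin of type 2X fibers, was lower with ORX, at −0.61 in WT and −0.61 in KO. These calls were kept in 24 of 29 and 21 of 29 other fits, the latter lost with library-size scaling. *Mylpf*, a fast myosin light chain, was higher with ORX in WT at 0.44, and *Tnnt3*, fast troponin T, was lower with ORX in KO at −0.20, kept in 10 of 29 other fits and lost with library-size scaling. *Atp2a1*, the calcium pump of fast fibers, was lower with DHT in WT at −0.37, a call lost without WT-DHT libraries 39KR and 50KR (q = 0.016 by edgeR) although the fold change was as large, at −0.37. With library-size scaling alone, *Atp2a1* was called higher with ORX, at 0.27 in WT and 0.27 in KO. Between genotypes, *Acta1*, skeletal actin, was lower in KO at −0.37 in sham, −0.50 in ORX and −0.51 in DHT muscle, *Tnnt3* at −0.41 in ORX and −0.37 in empty muscle, and *Ckm*, muscle creatine kinase, at −0.37 in ORX muscle. The *Tnnt3* call in empty muscle was kept in 21 of 28 other fits. Of the 8 markers, 5, 6, 6 and 7 were negative in KO against WT in sham, ORX, empty and DHT muscle. The medians were −0.03, −0.15, −0.23 and −0.10.

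Markers of other cells moved in part with treatment. Of 5 fibroblast markers, *Pdgfra* was lower with ORX in WT at −0.23 and with DHT in WT at −0.44, without overlap in either. The first of these calls was kept in 10 of 29 other fits and lost with library-size scaling, and the second in all. *Lum* was higher with ORX, at 0.59 in WT and 0.57 in KO, and lower with DHT in KO, at −0.98, while *Dcn* was higher with DHT, at 0.54 in WT and 0.51 in KO. The *Lum* calls were kept in all other fits and both *Dcn* calls were lost with library-size scaling. Between KO-sham and WT-sham, DESeq2 called *Dcn* and *Pdgfra* lower, and *Col1a1* was called higher with ORX in KO in 6 of 29 other fits and lower with DHT in KO in 4 of 28, at −1.54 to −1.35. DESeq2 called *Lum* lower in KO-DHT than in WT-DHT, at −0.44. The list was thus mixed, with 4 of 5 negative with ORX in WT and 1 in KO, 3 with DHT in WT and 3 in KO, and medians of −0.07, 0.24, −0.05 and −0.25. With library-size scaling 0 were negative with ORX in KO, and 2 were negative with DHT in WT when WT-DHT libraries 39KR and 50KR were left out, with a median of 0.17. Their summed level lay between 1682 and 2495 in WT-sham (median 1908), between 1558 and 2011 in WT-ORX (median 1764), between 1444 and 1970 in KO-sham (median 1572) and between 1431 and 3349 in KO-ORX (median 1821), and between 1179 and 1797 in WT-empty (median 1463), between 1364 and 2588 in WT-DHT (median 1781), between 1405 and 2545 in KO-empty (median 1492) and between 1450 and 2005 in KO-DHT (median 1680). The most abundant was *Dcn* or *Col3a1* in each group.

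Of 5 endothelial markers, *Pecam1* was higher with DHT in WT at 0.33, without overlap. All 5 were positive with DHT in both genotypes, also with library-size scaling, with medians of 0.33 in WT and 0.20 in KO, and the sum, with *Pecam1* the most abundant, lay between 141 and 184 in WT-empty (median 161), between 179.7 and 233 in WT-DHT (median 208), between 161 and 208 in KO-empty (median 185) and between 169.8 and 238 in KO-DHT (median 218). The *Pecam1* call was lost with library-size scaling and without WT-DHT libraries 39KR and 50KR (q = 0.012 by edgeR), where its fold change was still 0.31 and all 5 were positive in WT, and DESeq2 called *Kdr* as well. Of 5 leukocyte markers, *Csf1r* was lower with ORX in WT at −0.31 and lower in KO-sham than in WT-sham at −0.29, calls kept in 22 of 29 and 19 of 29 other fits and both lost with library-size scaling. In those comparisons 2 and 5 of the 5 were negative, with medians of 0.06 and −0.19, and the sum, with *Csf1r* the most abundant, lay between 54.6 and 67.0 in WT-sham (median 62.2), between 52.7 and 71.2 in WT-ORX (median 58.5) and between 45.4 and 60.8 in KO-sham (median 54.0). With DHT in KO 4 of the 5 were negative, 2 at an unadjusted p-value under 0.05, with a median of −0.40. *Ptprc*, the common leukocyte antigen, was called lower there in 3 of 28 other fits, DESeq2 among them, at −1.25 to −1.05. All 5 were positive in KO-empty against WT-empty, with a median of 0.37, and negative for the interaction of genotype and DHT, with a median of −0.49. The sums lay between 43.8 and 66.1 in WT-empty (median 51.0), between 45.9 and 69.4 in WT-DHT (median 53.2), between 39.6 and 119 in KO-empty (median 61.2) and between 49.5 and 64.7 in KO-DHT (median 57.3). KO-empty library 61KR was the highest, and without it these medians were −0.03, −0.03 and −0.12.

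The satellite cell markers *Pax7* and *Myf5* were higher in KO-DHT than in WT-DHT, at 1.24 and 0.89, calls kept in all other fits. With DHT both had negative values in WT, with a median of −0.66 and 2 at an unadjusted p-value under 0.05. In KO the median with DHT was 0.01. *Pax7* was called lower with DHT in WT in 1 of 28 other fits, without WT-empty library 4KR, at −0.91. *Myf5* was higher in KO-sham than in WT-sham at 0.75, a call kept in 20 of 29 other fits and lost with library-size scaling. Their sums were low, with at most 6.82 CPM in a library. No marker of red blood cells or Schwann cells was called by edgeR or in any other fit, although members of each list had a shared direction in some comparisons. All 4 red blood cell markers were positive with DHT in WT and negative in KO, with medians of 0.72 and −0.50, and 1 marker in each at an unadjusted p-value under 0.05. For the interaction of genotype and DHT all 4 were negative (median −1.23, 3 under 0.05), and in KO-empty against WT-empty all 4 were positive (median 0.89, 3 under 0.05). In KO-DHT against WT-DHT all 4 were negative, with a median of −0.46, or −0.27 without WT-DHT library 39KR. The directions were the same with library-size scaling. Their sum, with the hemoglobin gene *Hbb-bs* the most abundant, lay between 60.4 and 244 in WT-empty (median 131), between 139 and 350.4 in WT-DHT (median 198), between 89.9 and 627 in KO-empty (median 149.7) and between 138 and 194 in KO-DHT (median 181), and KO-empty library 61KR was again the highest. Without it 2 of 4 were negative with DHT in KO, and the medians were 0.05 for DHT in KO, −0.54 for the interaction and 0.20 for KO-empty against WT-empty. With ORX in WT all 4 were negative, with a median of −0.39 and 2 under 0.05, and sums between 226 and 553 in WT-sham (median 375) and between 218 and 418 in WT-ORX (median 259). In KO-ORX against WT-ORX all 4 were positive, with a median of 0.45 and a sum between 265 and 491 in KO-ORX (median 428). The 4 Schwann cell markers were negative with DHT in both genotypes, with medians of −0.36 in WT, 1 of them under 0.05, and −0.14 in KO, and in WT sums between 28.6 and 42.2 in WT-empty (median 35.5) and between 18.04 and 38.1 in WT-DHT (median 27.5), with *Mbp* the most abundant, and in no other comparison was one of them under 0.05. *Ucp1* and *Elovl3* are not among the genes of the gastrocnemius table. The part of these fibroblast, endothelial, leukocyte, satellite, red blood and Schwann cell markers in the values of the 33 genes was not tested.

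Paralogs did not always share a pattern. With DHT in WT, *Suclg2* had a log2 fold change of −0.42 and *Sucla2* 0.02, and *Got1* had −0.46 and *Got2* −0.02. Between KO and WT in sham muscle, *Pdk1* had 0.18 and *Pdk2* 0.00, and *Slc25a12* had 0.29 and *Slc25a13* 0.40, the latter at levels of at most 2.68 CPM. *Mdh1* and *Mdh2* had 0.41 and 0.43 between KO-DHT and WT-DHT, of which the first was called. Differences between paralogs were not tested. The genes *Idh2*, *Dld*, *Mdh2*, *Pdk2* and *Slc25a13* were called in no comparison by edgeR with all libraries and TMM, and their log2 fold changes over the 10 comparisons lay from −0.35 for *Idh2* to 0.62 for *Slc25a13*. In 8 of 28 other fits, among them DESeq2, limma-voom, library-size scaling and the fit without WT-DHT libraries 39KR and 50KR, *Idh2* was called higher in KO-DHT than in WT-DHT, at 0.56 to 0.72. *Dld* was called without KO-sham library 1, lower with ORX in KO at −0.24 and higher in KO-sham than in WT-sham at 0.23.

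Promoters were read because genes of the cycle moved together between genotypes and *Esrra* moved with treatment. RefSeq windows on GRCm38.p6, from 250 bases before to 50 after a gene start, were given for 30 of the 33 genes, and *Idh3a*, *Pdp1* and *Sdhc* had none. Exact matches on both strands were sought to TCAAGGTCA, an element bound by ERR receptors, GCGCATGC, the core bound by NRF1, and AGAACA, the half-site of androgen response elements. The first was found in 1 of the 30 genes, *Sdhd*, and in 0.466% of all 27025 genes with a window. GCGCATGC was found in 2, *Ogdh* and *Sdhb*, and in 3.05% of all. AGAACA was found in 3, *Suclg1*, *Sucla2* and *Pdk1*, and in 21.3% of all. The stretches around the matches are shown 5′ to 3′ on the gene's strand with the matched bases, in either orientation, in capitals, for *Sdhd*, for both genes with the NRF1 core and for *Sucla2*, which was higher in KO in 3 of the 4 groups. None of the 3 motifs contains another. A match is a description of the letters and not a bound site.
*Sdhd*, chr9:50603800-50603833, minus strand: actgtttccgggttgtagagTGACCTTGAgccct
*Ogdh*, chr11:6292523-6292570, plus strand: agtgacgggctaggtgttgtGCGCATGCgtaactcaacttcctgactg
*Sdhb*, chr4:140961197-140961244, plus strand: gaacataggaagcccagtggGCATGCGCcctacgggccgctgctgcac
*Sucla2*, chr14:73552801-73552835, plus strand: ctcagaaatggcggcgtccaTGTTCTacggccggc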

How the data were processed

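Counts of reads per gene were deposited by the authors as whole numbers without normalization. Stranded total RNA libraries were made, and the submitters' processing notes name STAR 2.7.1b, SAMtools 1.9, Picard 2.20.2, featureCounts and Subread 2.0.0, with the genome build GRCm39. Gene symbols, exon lengths and overlaps were taken from GENCODE M21 on GRCm38, and promoters from RefSeq on GRCm38.p6. Of 17514 and 16987 Ensembl identifiers, 17433 and 16920 matched a symbol. Columns of the spinalis table were matched to groups alone.

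Counts were analysed in R 4.3.3 with edgeR 4.0.16 (TMM, a mean for each of 4 groups, quasi-likelihood F tests, Benjamini-Hochberg adjustment over all genes). The filter of 0.5 CPM in at least 2 libraries removed no gene. Alternatives used DESeq2 1.42.0 and limma 3.58.1 (voom), library-size scaling, a minimum of 10 counts in every library, only the groups compared, a threshold of 0.05, a replicate block and the removal of each library. For genes outside the 33, markers included, these alternatives, and for spinalis the removal of 2 WT-DHT libraries together, were chosen after seeing the data. Scripts were tested on simulated data, and plots were made in matplotlib 3.10.9 under Python 3.11.15.

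The 33 genes and the other lists were chosen with earlier results of these data known. Each gene past a threshold is named, with full statistics for up to 6 genes of smallest q in a comparison and for those past an interaction. Pathway, marker and regulator genes outside the 33 were named after their values were seen. Calls of the other pathway genes lower with ORX are not reported here.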

Additional observations from a re-analysis of the deposited data

Results flagged for a closer look

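Single libraries lay far from the rest of their group in 7 of 120 groups of values, which were the groups of a table for each gene given there with full statistics, and all 8 groups for the summed level of the 33 genes. Chance gives about 1 in 20, or 6 of 120. *Dlat* was at 137 CPM in WT-sham library 5, and the other libraries of the group lay between 156 and 165. *Idh3b* was at 389 CPM in KO-DHT library 6KR, and the other libraries of the group lay between 419.8 and 429. *Idh3g* was at 219 CPM in WT-empty library 4KR, and the other libraries of the group lay between 167 and 177. *Mdh1* was at 598 CPM in WT-empty library 4KR, and the other libraries of the group lay between 475 and 504. *Mpc2* was at 139.5 CPM in WT-ORX library 6, and the other libraries of the group lay between 158 and 162. *Pdha1* was at 392 CPM in WT-empty library 4KR, and the other libraries of the group lay between 335 and 344. *Pdk1* was at 97.5 CPM in WT-ORX library 6, and the other libraries of the group lay between 102 and 105. WT-empty library 4KR was the high one for 3 genes and WT-ORX library 6 the low one for 2. Without WT-empty library 4KR, 1 of the 33 genes was called for the DHT interaction in place of 3.

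The effect of DHT differed between KO and WT by edgeR's interaction test for 3 of the 33 genes, with log2 differences of 0.33 for *Idh3b*, 0.32 for *Suclg2* and 0.41 for *Sdhb*. It also differed for 5 other genes of the pathway, by 0.32 for *Glud1*, 0.69 for *Gpd2*, 0.92 for *Gpt2*, 0.48 for *Me3* and 0.77 for *Oxct1*. All 8 differences were positive.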

How the results depend on the processing

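Leaving out 1 library in turn gave between 2 and 5 genes of the 33 for ORX in WT, 6 and 12 for ORX in KO, 10 and 15 for KO against WT in sham, 2 and 3 in ORX, 0 and 0 for the ORX interaction, 6 and 8 for DHT in WT, 5 and 11 for DHT in KO, 1 and 3 for KO against WT in empty, 18 and 21 in DHT, and 1 and 4 for the DHT interaction. With library-size scaling the counts moved to 2 for ORX in WT, 1 for ORX in KO, 1 for KO against WT in empty and 5 for the DHT interaction. With DESeq2 they moved to 15 for ORX in KO, 4 for KO against WT in ORX, 1 for the ORX interaction and 6 for KO against WT in empty. Fits of only the groups compared gave 4 for ORX in KO, 5 for DHT in KO and 0 for KO against WT in empty, from fewer samples. The threshold of 0.05 gave 16 for ORX in KO, 20 for KO against WT in sham, 4 in ORX and 7 in empty. Leaving out both WT-DHT libraries 39KR and 50KR, chosen after seeing the data, gave 5 for DHT in WT and 5 for the DHT interaction. Except for the smaller fits and the wider threshold, the cause was not tested. The median of the 33 genes changed sign for DHT in WT with library-size scaling, from 0.02 to −0.06, and without WT-DHT library 50KR, to −0.01. The other counts, those of limma-voom and the count filter included, stayed within 1.5 times. No called gene changed sign under any alternative.

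Replicate numbers were not taken to pair the gastrocnemius samples. Correlations of same-numbered libraries lay between −0.15 and 0.188, and not every library correlated best with its own number. These values cannot decide whether the numbers mark a shared block. With the replicate block, 4 genes were called for ORX in WT, 11 for ORX in KO, 15 for KO against WT in sham, 3 in ORX and 0 for the interaction. No paired analysis was possible for spinalis because the columns carry no replicate numbers.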
